A study of Mus musculus with 29 samples.

Results

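A set of 8 genes concerns elongation factor 2 and parts of the route by which an exotoxin stops protein synthesis. The set holds Eef2, its kinase gene Eef2k, the diphthamide genes Dph1, Dph2, Dph3, Dph5 and Dnajc24, and the protease gene Furin. They were taken as the array probes whose RefSeq accession carries one of these symbols. All 8 genes were found, with 12 probes in all, and all 8 were among the 15635 genes tested. Dph1, Dph3, Dnajc24 and Eef2k have 2 probes each and the other 4 genes have 1 each; the brighter probe stands for the gene. The rule uses the symbols alone and no measured value, but the 8 genes were chosen with earlier results of these data known.

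Elongation factor 2, the product of Eef2, moves the ribosome along the messenger RNA. A histidine in it is converted to diphthamide, and Pseudomonas exotoxin and diphtheria toxin attach ADP-ribose to that residue, which stops elongation. Diphthamide is built in steps: Dph1, Dph2, Dph3 and Dnajc24 (also called Dph4) act in the opening transfer to the histidine, Dph5 methylates the intermediate, and Dph6 and Dph7 act last. Furin cleaves Pseudomonas exotoxin inside the cell and so frees its active fragment, and eEF2 kinase phosphorylates the factor and slows elongation independently of any toxin. Podocytes are the postmitotic epithelial cells that wrap the glomerular capillaries.

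The arrays measured RNA of sorted kidney podocytes from 16 male C57BL/6J mice of the line Pod-hCD25T/G, aged 8 weeks. The treatment named for all samples is heminephrectomy (removal of 1 kidney) and then 25 ng LMB2 per gram of body weight, and the labels do not say whether mice of day 0 had the surgery. LMB2 is a recombinant immunotoxin in which an anti-CD25 antibody fragment, specific for the human protein, carries a truncated Pseudomonas exotoxin. The TdTomato samples number 4, 4, 4 and 2 at days 0, 1, 4 and 7, and the EGFP samples number 4, 3, 4 and 4. Day 0 is before injection. As known of this line and not stated in the labels, TdTomato marks podocytes that carry human CD25 and can take up the toxin, whereas neighbouring EGFP podocytes lack it. The labels do not name the promoter that drives these markers. Of the 16 mice 13 gave both populations, so most TdTomato samples have an EGFP partner from the same animal, and replicates within a group are different mice. TdTomato cells at day 7 are those still present to be sorted, and there were 2 such samples.

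Signals are given as log2 after subtraction of the array's own 75th percentile, and a difference of 1 is a 2-fold difference. The share of spots well above background was 48.2% to 65.5% per array with 0 saturated spots; the number of arrays limits the precision. The 12 probes lay well above background on all 29 arrays, except the dimmer Dph1 probe, which did on 27. Podocyte markers (6 of 6) were well above background on every array. Their summed signal was 762 to 1173 times the 75th percentile in TdTomato at day 4, against 1285 to 2311 in TdTomato at day 0. Genes are called at a limma adjusted p under 0.05. In TdTomato at day 4, 5 of 6 podocyte markers were called lower than at day 0, beside 35.9% of all genes. At day 1 it was 4 of 6, beside 27.9% of all genes, and at day 7 it was 4 of 6, beside 8.46%. In bulk samples fewer cells of a type and less RNA per cell cannot be told apart.

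Of the 8 genes, 2 were called in TdTomato podocytes 1 day after injection, beside 51.7% of all genes: Dph5 rose and Furin fell. At day 4 the direction was down for all that were called, which were Dph3, Dph5, Dnajc24 and Furin. Of all genes 57.3% were called at that day, 35.9% lower. At day 7 none of the 8 was called in TdTomato (19.4% of all genes). None was called in EGFP at any day (0.0256% to 7.25% of all genes). Eef2, the target of the toxin, was called in none of the 13 comparisons unless the mouse or the slide was a term or 1 sample was left out, as given below. The plot of signals by sample shows all values.

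**Figure D1:**
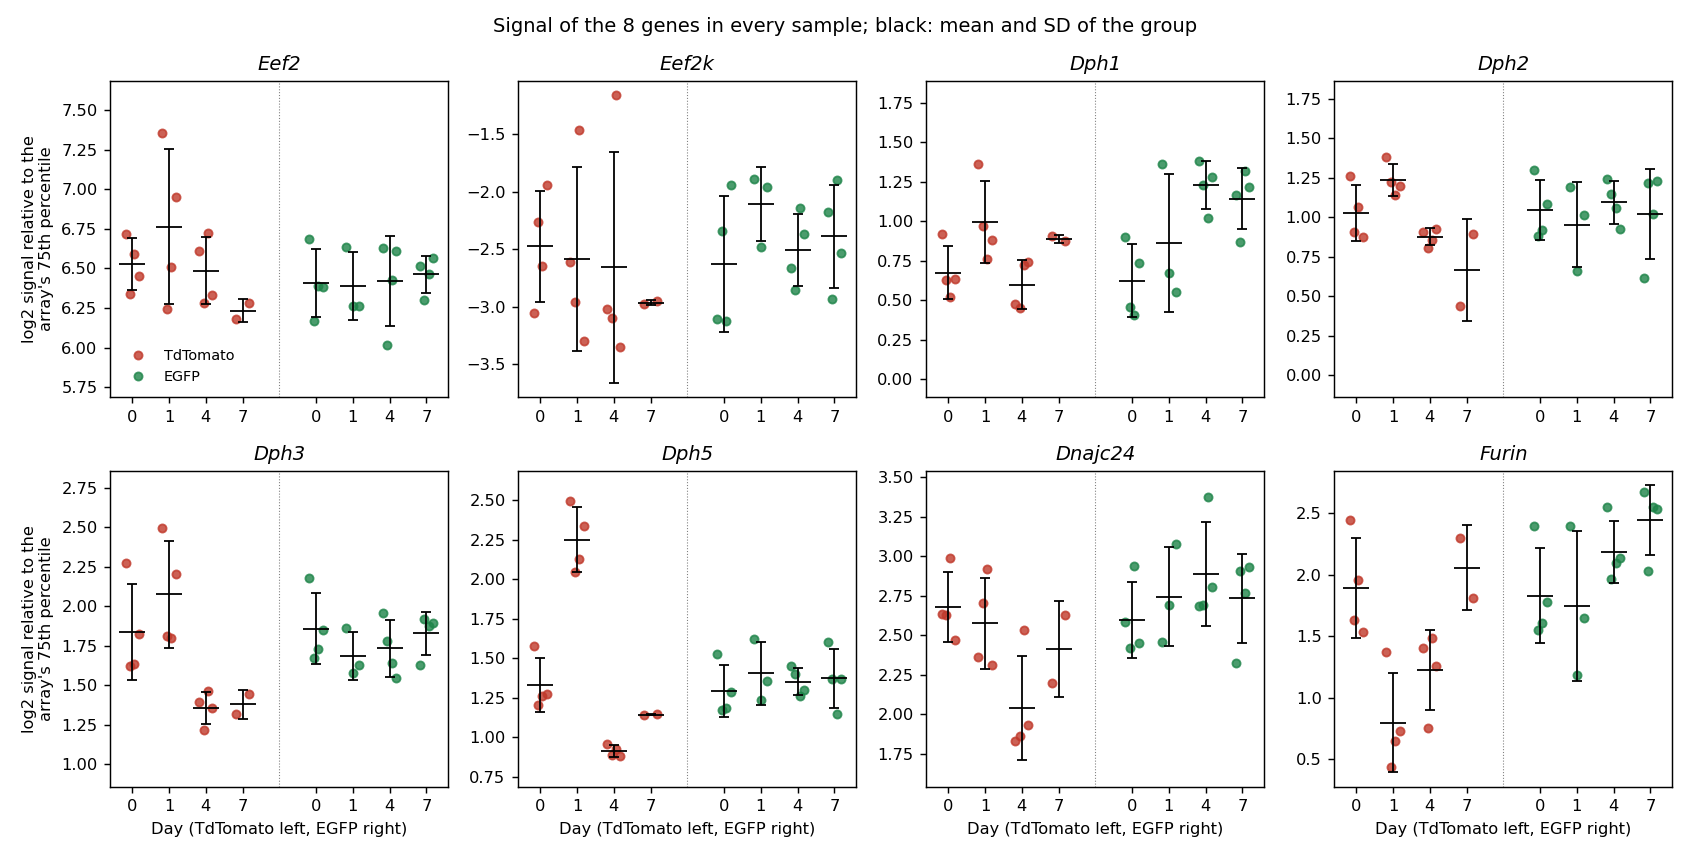
Log2 signal relative to the array's 75th percentile (y axis) by day (x axis) for the 8 genes, with TdTomato samples left of EGFP samples; each point is 1 sample, and the black bars give the mean and SD of the group. The 4 TdTomato samples of day 1 lie above all others in the Dph5 panel, and the 8 Eef2 group means differ by at most 0.53.

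Promoter stretches of 3 of these genes are shown because they carry the contrast between a target that was not called (Eef2) and the genes called in opposite directions at day 1 (Dph5 and Furin). Each runs from 100 bases before to 20 bases from the annotated start, 5′ to 3′ on the gene's strand, from RefSeq on build GRCm38.p6. Eef2 is on the plus strand at chr10:81176531-81176650, Dph5 on the plus strand at chr3:115888083-115888202 and Furin on the minus strand at chr7:80405417-80405536 (the upstream one of its 2 annotated starts). Capitals mark the motifs found.
Eef2: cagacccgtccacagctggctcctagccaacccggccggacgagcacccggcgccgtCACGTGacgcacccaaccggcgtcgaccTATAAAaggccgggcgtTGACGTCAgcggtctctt
Dph5: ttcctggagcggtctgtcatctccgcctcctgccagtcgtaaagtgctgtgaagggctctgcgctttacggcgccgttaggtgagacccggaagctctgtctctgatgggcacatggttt
Furin: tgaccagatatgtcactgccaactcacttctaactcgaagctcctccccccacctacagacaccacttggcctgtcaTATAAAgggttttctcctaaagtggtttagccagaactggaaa
The motifs searched on both strands were the E-box CACGTG, the cAMP response element TGACGTCA, the AP-1 site TGANTCA, the GC box GGGCGG and the TATA box TATAAA; none of them overlaps another in these stretches. Windows of 300 bases were held for 7 of the 8 genes, not for Dph2. Some genes have more than 1, which makes 11 windows, and a gene is named if any of its windows has the motif. The E-box is in 7.15% of the 32851 windows of this length and in 4 of the 11 (Dph1, Dph3, Eef2 and Eef2k). The cAMP response element is in 1.79% of windows and in 1 of the 11 (Eef2). The TATA box is in 13.6% of windows and in 4 of the 11 (Dnajc24, Dph3, Eef2 and Furin). The GC box is in 35.7% and in 5 of the 11 (Dph1, Dph3, Eef2k and Furin). For Furin it lies only in the window of the start that is not printed. The AP-1 site is in 7.81% and in 0 of the 11. Dph5 has none of the 5 motifs in its window. A match is a description of the letters and says nothing of binding.

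Eef2 (elongation factor 2, on chromosome 10) had 8 group means within 0.53 of each other. In TdTomato it stood at 6.72, 6.34, 6.59 and 6.45 at day 0, at 7.36, 6.24, 6.51 and 6.95 at day 1, at 6.61, 6.28, 6.72 and 6.33 at day 4, and at 6.18 and 6.28 at day 7. In EGFP it stood at 6.69, 6.17, 6.39 and 6.39 at day 0, at 6.63, 6.26 and 6.26 at day 1, at 6.63, 6.02, 6.43 and 6.61 at day 4, and at 6.52, 6.30, 6.46 and 6.57 at day 7. The highest value of all was TdTomato of mouse MC125 at day 1, and the day 1 group had the widest spread (SD 0.49, n = 4). The group means lay between 6.23 and 6.76, and every group overlapped its neighbour in the order of the means. Both TdTomato values of day 7 lay below the 4 of day 0.

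The change of Eef2 in TdTomato was 0.24 ± 0.19 at day 1 (95% interval -0.16 to 0.63), -0.04 ± 0.19 at day 4 (-0.43 to 0.36) and -0.29 ± 0.23 at day 7 (-0.78 to 0.19), none of them called. These intervals exclude a 2-fold change in either direction. In EGFP the changes were -0.02, 0.01 and 0.05 at days 1, 4 and 7. Between the populations Eef2 was 0.38 ± 0.21 higher in TdTomato at day 1 without a call (limma adjusted p = 0.138). With the mouse as a random block that difference was 0.34 and called (adjusted p = 0.0332), with the mouse as a fixed term it was not (adjusted p = 0.0851). It was called with the slide as a block (adjusted p = 0.0494) and without TdTomato MC541 (0.55, adjusted p = 0.0226), and it was 0.18 without TdTomato MC125 (adjusted p = 0.485). Within the 3 mice of day 1 it was 0.72, -0.02 and 0.24.

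Eef2k, the calcium and calmodulin dependent kinase of elongation factor 2, varied widely between samples. Its group means lay between -2.11 (EGFP, day 1) and -2.96 (TdTomato, day 7), and every group overlapped the next in that order. In TdTomato at day 4 the values were -3.02, -3.10, -1.16 and -3.35, against -3.06, -2.26, -2.65 and -1.94 at day 0. In EGFP the 4 values of day 4 lay between -2.85 and -2.14, against -3.13 to -1.94 at day 0. Mouse MC822 gave the TdTomato value at -1.16 and the other 3 lay near the lowest of day 0. The other probe put MC822 at -4.14, the lowest of its 29 values, so the probes disagree on this sample. The change was -0.18 ± 0.42 (95% interval -1.04 to 0.68) with all samples and -0.68 without TdTomato MC822, so the value rests on that sample. The other Eef2k probe gave -0.73 ± 0.39 for the same comparison (adjusted p = 0.127), and neither probe was called. No setting that was run called Eef2k in any comparison.

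Among the genes of the opening step, Dph1 and Dph2 encode the subunits of the iron-sulfur enzyme. Dph1 in TdTomato stood at 0.92, 0.63, 0.52 and 0.63 at day 0, at 1.36, 0.97, 0.76 and 0.88 at day 1, at 0.48, 0.45, 0.72 and 0.74 at day 4, and at 0.91 and 0.87 at day 7. In EGFP it stood at 0.90, 0.45, 0.41 and 0.74 at day 0, at 1.36, 0.67 and 0.55 at day 1, at 1.38, 1.23, 1.02 and 1.28 at day 4, and at 1.16, 0.87, 1.32 and 1.22 at day 7. The EGFP samples of day 4 all lay above those of day 0, while the TdTomato samples of day 4 overlapped those of day 0. The change of Dph1 in EGFP was 0.60 ± 0.17 at day 4 (1.52-fold, limma adjusted p = 0.122) and 0.52 ± 0.17 at day 7 (1.43-fold, adjusted p = 0.0636). Neither was called. The other Dph1 probe gave 0.08 ± 0.53 at day 4 and 0.77 ± 0.53 at day 7, also not called. With the slide as a block both changes of the brighter probe were called (limma adjusted p = 0.0247 and 0.0103). Within slides the difference for that probe ran from 0.48 to 0.78 at day 4 and from 0.26 to 0.86 at day 7. The day 7 change was also called without EGFP MC122 of day 0 (0.61) or EGFP MC791 of day 7 (0.61), with quantile normalization (0.52) and with the authors' deposited values (0.54). In TdTomato the changes were 0.32 ± 0.17, -0.08 ± 0.17 and 0.21 ± 0.21, none called.

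Dph2 was called in none of the 13 comparisons unless the mouse was a term, as given below. Its group means lay between 0.67 (TdTomato, day 7) and 1.23 (TdTomato, day 1). In TdTomato the 4 samples of day 1 lay between 1.14 and 1.38, against 0.88 to 1.26 at day 0, and the 4 of day 4 between 0.81 and 0.93. The groups of day 1 and day 0 overlapped, and so did those of day 4 and day 0. The TdTomato values of day 7 were 0.44 and 0.90. In EGFP the gene ran from 0.88 to 1.30 at day 0, from 0.66 to 1.19 at day 1, from 0.93 to 1.24 at day 4 and from 0.62 to 1.23 at day 7, with all groups overlapping. The changes in TdTomato were 0.21 ± 0.15, -0.15 ± 0.15 and -0.36 ± 0.18 at days 1, 4 and 7, the last with a 95% interval of -0.74 to 0.02.

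Dph3, a small metal-binding protein that in yeast passes electrons to the Dph1 and Dph2 enzyme, fell in TdTomato at day 4. Its TdTomato values were 1.40, 1.22, 1.46 and 1.36 at day 4, against 2.27, 1.62, 1.64 and 1.82 at day 0. All 4 samples of day 4 lay below all 4 of day 0. The change was -0.48 ± 0.16 (1.39-fold lower, limma adjusted p = 0.0154), and within slides it ran from -0.88 to -0.18. The call was lost without TdTomato MC122 of day 0 (-0.33, adjusted p = 0.0846), with quantile normalization (-0.30, adjusted p = 0.0656), with only these groups in the fit (adjusted p = 0.0521) and with the dimmer probe (-0.65, adjusted p = 0.0570). At day 1 the TdTomato values were 2.50, 1.81, 1.80 and 2.20 and overlapped those of day 0. At day 7 both values, 1.32 and 1.45, lay below all of day 0. The day 7 change of -0.46 ± 0.20 was not called (adjusted p = 0.113), but was with the slide as a block (-0.50, adjusted p = 0.0357) and with the mean of the probes (-0.60, adjusted p = 0.0325). In EGFP the gene stood at 2.18, 1.67, 1.73 and 1.85 at day 0, at 1.86, 1.58 and 1.63 at day 1, at 1.96, 1.78, 1.64 and 1.55 at day 4, and at 1.63, 1.92, 1.88 and 1.90 at day 7. These groups overlapped, and the changes of Dph3 in EGFP were -0.17, -0.12 and -0.03.

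Dnajc24, the J-domain protein also known as Dph4, fell in TdTomato at day 4. It stood there at 1.83, 1.86, 2.53 and 1.93, against 2.63, 2.63, 2.98 and 2.47 at day 0. Mouse MC822 was high and alone overlapped the day 0 group. The change was -0.64 ± 0.21 (1.56-fold lower, limma adjusted p = 0.0109), and within slides it ran from -0.80 to -0.45. The other Dnajc24 probe fell by 0.82 on the log2 scale (adjusted p = 0.00254). With quantile normalization the change was -0.44 and not called (adjusted p = 0.0596). In TdTomato at day 1 the mean was 2.57 ± 0.29 (SD, n = 4), against 2.68 ± 0.22 at day 0, and at day 7 the values were 2.20 and 2.63, which overlapped day 0. In EGFP it stood at 2.58, 2.42, 2.94 and 2.45 at day 0, at 2.46, 2.69 and 3.08 at day 1, at 2.69, 2.69, 3.37 and 2.80 at day 4, and at 2.32, 2.91, 2.77 and 2.93 at day 7. These groups overlapped and no change was called.

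Dph5, the methyltransferase of the middle step, had the largest rise among the 8 genes and turned down afterwards. In TdTomato it stood at 1.58, 1.21, 1.26 and 1.27 at day 0, at 2.50, 2.05, 2.13 and 2.33 at day 1, at 0.96, 0.89, 0.93 and 0.88 at day 4, and at 1.14 and 1.15 at day 7. All day 1 samples lay above every other sample of either population, and all day 4 samples below every other. In EGFP it stood at 1.53, 1.17, 1.19 and 1.29 at day 0, at 1.62, 1.24 and 1.36 at day 1, at 1.45, 1.40, 1.26 and 1.30 at day 4, and at 1.60, 1.37, 1.15 and 1.37 at day 7, with all groups overlapping.

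The rise of Dph5 in TdTomato at day 1 was 0.92 ± 0.13 (1.89-fold, limma adjusted p = 1.35e-06). It was found within each of the 4 slides (0.84 to 1.06) and lay between 0.84 and 1.00 with any 1 sample left out. At day 4 the gene was 0.42 ± 0.13 below day 0 (1.34-fold lower, adjusted p = 0.00702). Within slides that fall ran from -0.62 to -0.32, and it remained called in each of the alternatives run. The day 7 change of -0.19 ± 0.15 was not called. Changes in EGFP were 0.11, 0.06 and 0.08, and the 95% interval at day 1, -0.17 to 0.39, lies below the TdTomato estimate.

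Furin, the proprotein convertase that cuts the toxin, fell in TdTomato at days 1 and 4. Its values there were 2.44, 1.64, 1.95 and 1.53 at day 0, 1.37, 0.43, 0.65 and 0.73 at day 1, 1.40, 0.76, 1.49 and 1.26 at day 4, and 2.30 and 1.81 at day 7. All samples of day 1 and of day 4 lay below all of day 0, and those of day 7 lay among day 0. In EGFP it stood at 2.39, 1.55, 1.61 and 1.78 at day 0, at 2.40, 1.19 and 1.65 at day 1, at 2.55, 1.96, 2.10 and 2.13 at day 4, and at 2.67, 2.03, 2.55 and 2.53 at day 7. There the groups overlapped and the highest mean was that of day 7.

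In numbers, Furin in TdTomato changed by -1.10 ± 0.27 at day 1 (2.14-fold lower, limma adjusted p = 0.00117), with slides from -1.31 to -0.80. At day 4 it changed by -0.67 ± 0.27 (1.59-fold lower, adjusted p = 0.0360), with slides from -1.04 to -0.27. The day 4 call was lost without TdTomato MC122 (-0.48) or MC742 (-0.65) of day 0, without TdTomato MC692 (-0.51) or MC823 (-0.68) of day 4, with quantile normalization (-0.49, adjusted p = 0.0891) and with only these groups in the fit (adjusted p = 0.0519). At day 7 the change was 0.16 ± 0.33 and not called. In EGFP the change at day 7 was 0.61 ± 0.27 (adjusted p = 0.194) and was called with the slide as a block (0.59, adjusted p = 0.00542); within slides it ran from 0.28 to 0.94.

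**Figure D2:**
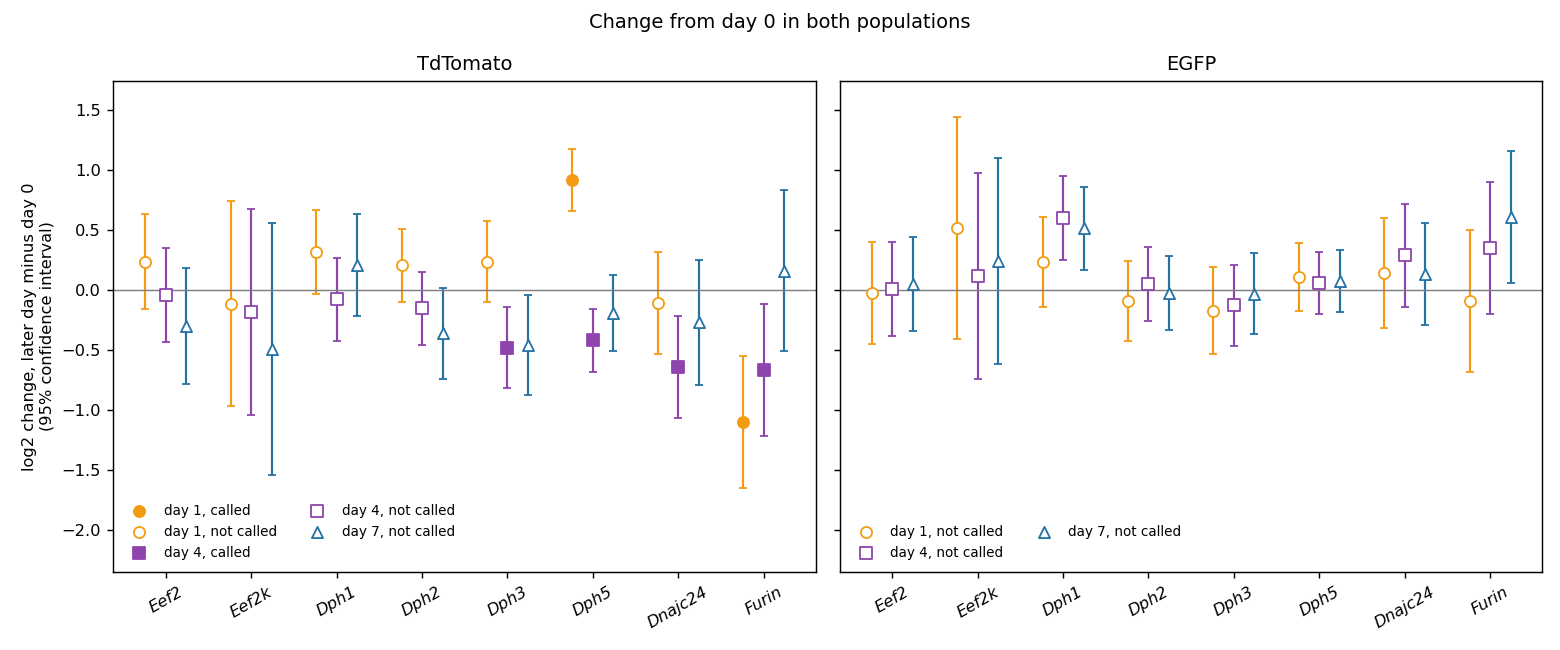
Log2 change of each gene (x axis) from day 0, with its 95% confidence interval (y axis), in TdTomato (left) and EGFP (right); filled symbols are called at a limma adjusted p under 0.05. The filled symbols, 2 at day 1 and 4 at day 4, are all in the TdTomato panel.

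These counts stand against a large background in TdTomato. At day 1, limma called 1 of the 8 genes higher and 1 lower, while it called 51.7% of all 15635 genes, 23.8% higher and 27.9% lower. At day 4 it called 0 higher and 4 lower, with 57.3% of all genes called, 21.4% higher and 35.9% lower. In either direction, the share of the 8 genes called is below that of all genes at day 1 and close to it at day 4. For genes called lower at day 4, 4 of 8 stands above the 35.9% of all genes. Shares of only 8 genes are coarse. The median change of the 8 was 0.22 at day 1 and -0.30 at day 4, beside -0.13 and -0.28 over all genes. At day 7, 0 of the 8 were called (1 at an unadjusted p under 0.05), with 19.4% of all genes called, 10.9% higher and 8.46% lower, and the medians were -0.28 for the 8 and -0.13 for all genes. In EGFP limma called 0 of the 8 at each day, with 0.0256%, 0.595% and 7.25% of all genes called at days 1, 4 and 7. At an unadjusted p under 0.05 the counts in EGFP were 0, 1 (Dph1) and 2 (Dph1 and Furin).

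TdTomato was then set against EGFP at each day, and the change in TdTomato against the change in EGFP as an interaction. These comparisons share samples with those above. Before injection 0 of the 8 genes were called and 0 had an unadjusted p under 0.05, with 0% of all genes called by limma. The differences at day 0 lay between -0.02 (Dph3) and 0.15 (Eef2k), and the 95% intervals of all but Eef2k exclude a 2-fold difference.

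At day 1, 1 of the 8 was higher in TdTomato (Dph5) and 1 lower (Furin), with 49.3% of all genes called, 23.7% higher and 25.6% lower. Dph5 averaged 2.25 ± 0.20 in TdTomato (SD, n = 4) and 1.40 ± 0.20 in EGFP (n = 3), a difference of 0.85 ± 0.14 (limma adjusted p = 1.33e-05), and within the 3 mice with both samples it was 0.77 to 0.87. Furin averaged 0.80 ± 0.40 in TdTomato and 1.74 ± 0.61 in EGFP, a difference of -0.95 ± 0.29 (adjusted p = 0.00775), and within mice it was -1.03 to -0.75. The groups overlapped for Furin, since EGFP MC541 stood at 1.19 and TdTomato MC125 at 1.37. Its call was lost without EGFP MC125 (-0.62, adjusted p = 0.0954) and with only these groups in the fit (adjusted p = 0.0632). With the mouse as a random term the count was 5 and with a fixed one 4, against 2 without it. The 49.3% of all genes belongs to the fit without the mouse. No share of all genes is given for the fits with it, so the higher counts cannot be read as particular to these genes. The added genes were Eef2, as given above, Dph2 (0.29, adjusted p = 0.0197, and 0.0388 with a fixed term) and Dph3 (0.36, adjusted p = 0.00692, and 0.0222 with a fixed term). Without the mouse Dph3 was 0.39 ± 0.18 higher (adjusted p = 0.0726). It was called with the slide as a block (adjusted p = 0.0324), with normexp (adjusted p = 0.0287), with the authors' deposited values (adjusted p = 0.0495) and without TdTomato MC541 (0.48) or MC542 (0.48).

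At day 4, 0 of the 8 were higher in TdTomato and 4 lower (Dph1, Dph5, Dnajc24 and Furin), with 59.6% of all genes called, 21.0% higher and 38.6% lower. The median difference was -0.41 for the 8 and -0.33 for all genes. Dnajc24 differed by -0.85 ± 0.21 (1.80-fold lower, limma adjusted p = 0.00115), and its difference within the 4 mice varied little, at -0.86, -0.83, -0.84 and -0.87. Mouse MC822 had the highest Dnajc24 in both populations, 2.53 in TdTomato and 3.37 in EGFP, so the difference within it was like that of the others. Furin differed by -0.96 ± 0.27 (1.95-fold lower, adjusted p = 0.00341), with mice from -1.21 to -0.61. Dph5 differed by -0.44 ± 0.13 (1.36-fold lower, adjusted p = 0.00452), with mice from -0.51 to -0.34.

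Dph1 differed at day 4 by -0.63 ± 0.17 (1.55-fold lower, limma adjusted p = 0.00262), with mice from -0.90 to -0.30. Of that difference, the larger part lies in the EGFP samples, which averaged 1.23 ± 0.15 at day 4 and 0.62 ± 0.23 at day 0, while TdTomato averaged 0.60 ± 0.15 and 0.68 ± 0.17 (SD, n = 4 each). The dimmer Dph1 probe did not show it (-0.23, adjusted p = 0.733), nor did the mean of both probes pass (-0.43, adjusted p = 0.247). Dph3 was 0.37 below EGFP and just missed the threshold (-0.37 ± 0.16, adjusted p = 0.0519). Its 4 TdTomato samples all lay below the 4 EGFP samples, and it was called with the mouse as a random (adjusted p = 0.00175) or fixed term (adjusted p = 0.00545), with the slide as a block, normexp, a strict filter and the authors' deposited values, and without EGFP MC823 (-0.44). Dph2 was called with the random mouse term (-0.22, adjusted p = 0.0373) and not with the fixed one (adjusted p = 0.0579).

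At day 7, 0 of the 8 differed (1 at an unadjusted p under 0.05, Dph3), with 6.98% of all genes called by limma. With the mouse as a random term Dph3 (-0.41, adjusted p = 0.0323) and Dph5 (-0.30, adjusted p = 0.0364) were called, and with a fixed term Dph5 was (-0.34, adjusted p = 0.0424) and Dph3 was not (adjusted p = 0.0972). The TdTomato group holds 2 samples at this day. The deposited value columns of both MC221 samples of day 7 follow other scanner files more closely than their own, and without both arrays, which leaves 1 TdTomato sample that is assumed to vary like the other groups, 0 of the 8 were called.

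**Figure D3:**
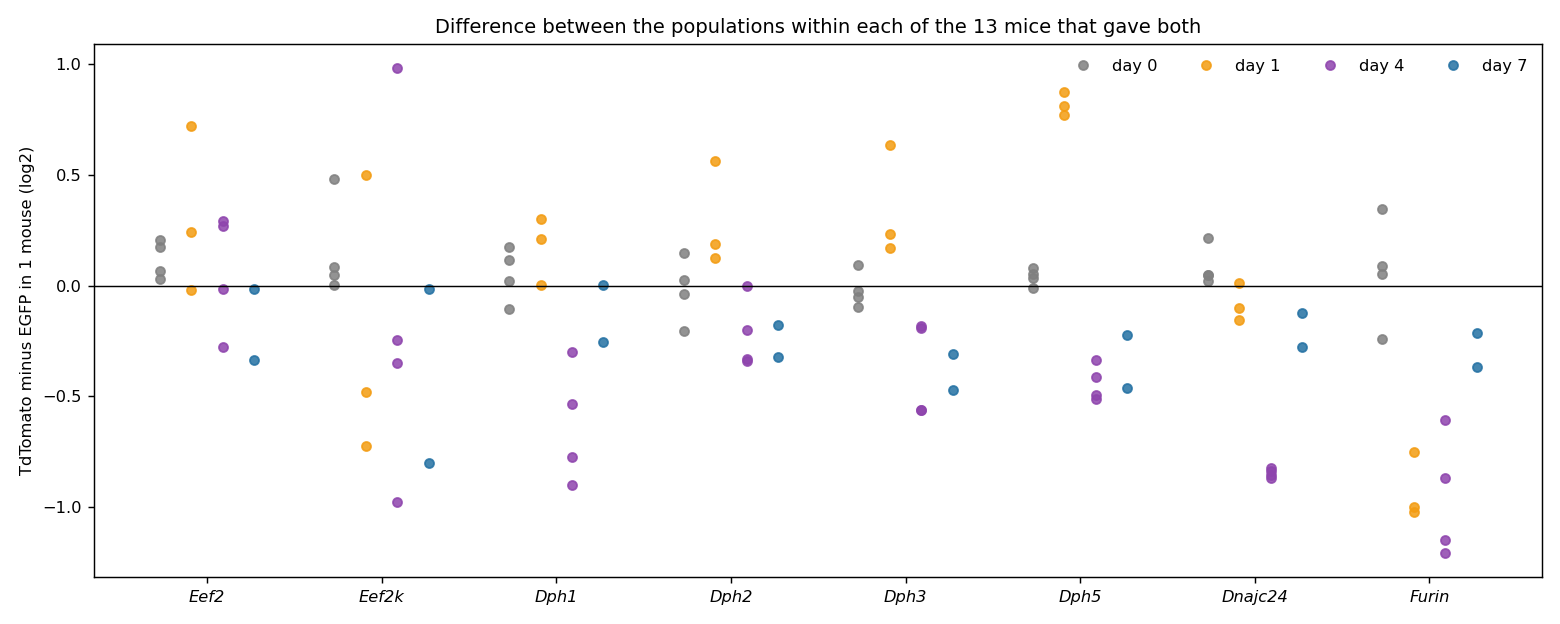
Difference TdTomato minus EGFP within 1 mouse (y axis, log2 signal) for each gene (x axis), coloured by day; each point is 1 of the 13 mice that gave both samples. The 4 mice of day 4 lie between -0.87 and -0.83 for Dnajc24, and the 3 mice of day 1 between 0.77 and 0.87 for Dph5.

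The interaction asks whether the change from day 0 differs between the populations. At day 1, 1 of the 8 was called higher and 1 lower, with 38.4% of all genes called, 18.3% higher and 20.1% lower. Dph5 differed by 0.81 ± 0.19 (limma adjusted p = 0.00120) and stayed called in each alternative run. Furin differed by -1.01 ± 0.39 (adjusted p = 0.0441), close to the threshold. Its call was lost without any 1 of TdTomato MC122 or MC742 or EGFP MC731, MC742 or MC753 of day 0, or TdTomato MC541, MC542 or MC831 or EGFP MC125 or MC542 of day 1 (-1.06 to -0.68). It was also lost with no filter on dim probes (adjusted p = 0.0601) and with only these groups in the fit (adjusted p = 0.0965). Dph3 (0.41 ± 0.24) was not called, but was with the mouse as a random term (0.38, adjusted p = 0.0345), and not with the fixed one (adjusted p = 0.0650).

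At day 4 the interaction called 0 of the 8 higher and 4 lower, with 44.3% of all genes called, 16.0% higher and 28.3% lower. Furin differed by -1.02 ± 0.38 (limma adjusted p = 0.0307), Dnajc24 by -0.93 ± 0.29 (adjusted p = 0.0128), Dph1 by -0.68 ± 0.24 (adjusted p = 0.0239) and Dph5 by -0.48 ± 0.18 (adjusted p = 0.0332). Dnajc24 stayed called with any 1 sample left out (-1.09 to -0.77). The other 3 lost their calls without TdTomato MC122, EGFP MC731 or EGFP MC742 of day 0, with -0.84 to -0.95 for Furin, -0.60 to -0.62 for Dph1 and -0.39 to -0.44 for Dph5. Furin (-0.90 and -0.86) and Dph5 (-0.44 and -0.47) also lost theirs without EGFP MC151 or TdTomato MC692 of day 4, and Dph5 without EGFP MC692 (-0.46) or with no filter on dim probes (adjusted p = 0.0539). Dph1 also lost its call with the dimmer probe (-0.61, adjusted p = 0.538) and with the mean of both (-0.65, adjusted p = 0.247). With quantile normalization none of the 4 was called (adjusted p = 0.0544 for Dnajc24, 0.0573 for Dph1, 0.0636 for Furin and 0.111 for Dph5), with values of -0.68, -0.53, -0.81 and -0.31. Dph3 (-0.36) was called with the mouse as a random (adjusted p = 0.0314) or fixed term (adjusted p = 0.0464). At day 7, 0 of the 8 were called (0 at an unadjusted p under 0.05), with 2.69% of all genes called.

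Genes with related functions were described in the same way, from lists chosen by function, and their counts stand against the 51.7%, 57.3% and 19.4% of all genes called in TdTomato at days 1, 4 and 7. Of the other diphthamide and eEF2 methylation enzymes in TdTomato, 1 of 3 rose at day 1 (Dph7, the methylesterase, 0.35 ± 0.12) and 1 fell (Eef2kmt, which methylates a lysine of the factor, -0.77 ± 0.18). At day 4, 0 rose and 2 fell, Dph6, the ligase of the final step (-1.05 ± 0.24), and Eef2kmt (-1.03 ± 0.18). At day 7, 2 fell, Dph6 (-1.0 ± 0.29) and Dph7 (-0.58 ± 0.15). Median changes of the 3 were 0.07, -1.03 and -0.58, beside -0.13, -0.28 and -0.13 over all genes. In EGFP, Dph7 was lower at day 7 (-0.51 ± 0.12, limma adjusted p = 0.00989), and none was called at days 1 and 4.

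Of the other elongation factors in TdTomato, 1 of 7 rose at day 1 and 2 fell, beside 23.8% of all genes higher and 27.9% lower: Efl1, the GTPase related to elongation factor 2 that acts in ribosome maturation, rose by 1.41 ± 0.19 (limma adjusted p = 1.12e-06), Eif5a2 fell by 0.81 and Eef1g by 0.51 on the log2 scale. Efl1 averaged 3.0 ± 0.36 at day 1, against 1.59 ± 0.26 at day 0 (SD, n = 4 each). At day 4, 0 rose and 3 fell (all genes 21.4% and 35.9%), Eif5a (-0.77 ± 0.15), Eef1d (-0.64 ± 0.19) and Eef1g (-0.51 ± 0.15), and at day 7 none of the 7 was called. The medians of the 7 were -0.09, -0.23 and -0.22, beside -0.13, -0.28 and -0.13 over all genes. In either direction the share called was below that of all genes on each day, a coarse measure with 7 genes. Eef1a2 did not pass the filter on dim probes.

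Of the other proprotein convertases in TdTomato, 4 of 6 rose at day 1 and 1 fell, beside 23.8% of all genes higher and 27.9% lower. Pcsk4, a convertase known from germ cells, rose by 4.09 ± 0.67 (limma adjusted p = 1.46e-05) and averaged 1.59 ± 1.94 (SD, n = 4), against -2.50 ± 0.20 at day 0. Pcsk2, the convertase of neuroendocrine cells, rose by 2.98 ± 0.39 (adjusted p = 6.03e-07) and averaged 2.91 ± 1.17, against -0.07 ± 0.26. Pcsk6 fell (-0.84 ± 0.26), as Furin did. At day 4, 2 of 6 rose, Pcsk4 (4.77 ± 0.67) and Pcsk2 (4.12 ± 0.39), and 3 fell, Pcsk6 the most (-1.20 ± 0.26), beside 21.4% and 35.9% of all genes. At day 7, 0 rose and 1 fell (Pcsk5, -0.43 ± 0.13). The medians were 0.65, -0.55 and -0.15 on the log2 scale, beside -0.13, -0.28 and -0.13 over all genes. Pcsk1 did not pass the filter.

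Most genes of toxin retrieval and translocation fell in TdTomato at day 1. Native Pseudomonas exotoxin binds Lrp1, while LMB2 holds a truncated exotoxin with an anti-CD25 fragment. The exotoxin is carried back to the endoplasmic reticulum by KDEL receptors and is thought to leave it through the Sec61 channel. In TdTomato at day 1, 0 of 8 rose and 7 fell, Kdelr1 by 1.38, Kdelr3 by 1.30 and Sec61b by 1.21 on the log2 scale, with a median of -1.0 beside -0.13 over all genes, of which 23.8% were higher and 27.9% lower. Lrp1 was the member not called. Kdelr1 averaged 0.66 ± 0.33 at day 1, against 2.04 ± 0.30 at day 0, and Sec61b averaged 4.57 ± 0.32, against 5.78 ± 0.18 (SD, n = 4 each). At day 4, 0 rose and 5 fell (all genes 21.4% and 35.9%), Derl1 (-0.80 ± 0.17), Sec61a1 (-0.73 ± 0.20) and Kdelr1 (-0.67 ± 0.21) the most. At day 7, 1 rose, Kdelr3 (1.40 ± 0.36), and 0 fell. Kdelr3 rose in EGFP at day 7 too (1.48 ± 0.30, limma adjusted p = 0.00166), and no other gene of this list was called in EGFP.

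Regulators of eEF2 kinase changed in both directions. In TdTomato at day 1, 2 of 11 rose and 5 fell, beside 23.8% of all genes higher and 27.9% lower: the kinase Mapkapk2 rose by 1.90 ± 0.19, while Prkaa2, a catalytic subunit of AMP-activated kinase, fell by 1.71 and the calmodulin gene Calm3 by 1.37 on the log2 scale. At day 4, 2 rose, the ribosomal S6 kinase gene Rps6ka1 (2.52 ± 0.24) and Prkaa1 (1.59 ± 0.16), and 7 fell (all genes 21.4% and 35.9%), Btrc, whose product marks the kinase for degradation, by 1.31. At day 7, 2 rose (Rps6ka1, 2.06 ± 0.30, and Prkaa1, 0.83 ± 0.20) and 3 fell (Btrc the most, -0.65 ± 0.17). The medians of the 11 were -0.23, -0.67 and -0.31, beside -0.13, -0.28 and -0.13 over all genes. In EGFP, Rps6ka1 rose at day 7 (1.48 ± 0.24, limma adjusted p = 0.000168) and no other was called. Between the populations, TdTomato minus EGFP called 3 of 11 higher and 6 lower at day 1 (all genes 23.7% and 25.6%), and 2 higher and 8 lower at day 4 (all genes 21.0% and 38.6%).

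**Figure D4:**
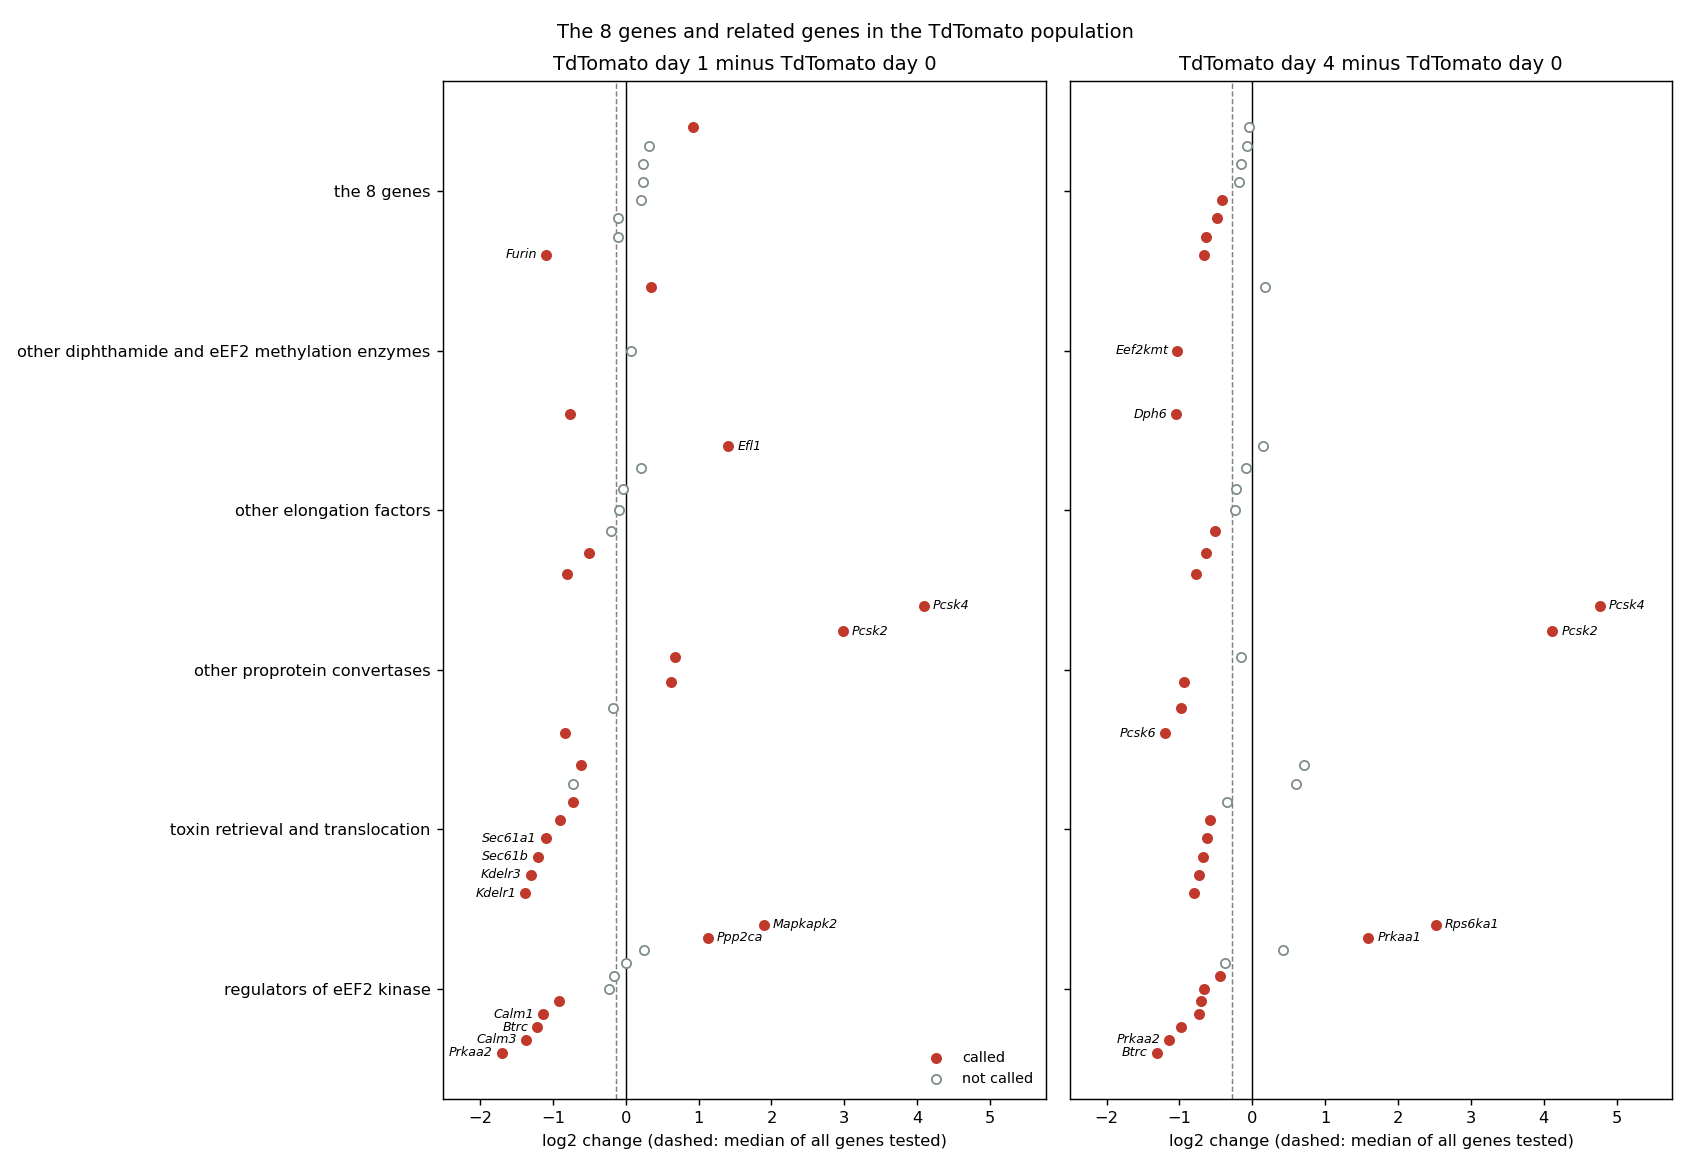
Log2 change in TdTomato at day 1 (left) and day 4 (right) against day 0 (x axis) for the 8 genes and 5 lists of related genes (y axis); filled points are called at a limma adjusted p under 0.05, and the dashed line is the median of all genes tested. Pcsk4 and Pcsk2 lie at 4.09 and 2.98 on the left and 4.77 and 4.12 on the right.

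Some markers of other cell types also changed in TdTomato, beside 51.7%, 57.3% and 19.4% of all genes called at days 1, 4 and 7. Myeloid markers (5 measured) summed to 83.2 to 264 times the 75th percentile in TdTomato at day 1, against 38.2 to 56.2 at day 0 (and 35.1 to 49.5 in EGFP at day 1), and 1 of the 5 rose: Csf1r, the receptor of macrophage colony-stimulating factor, by 3.15 ± 0.29. Adgre1, Itgam and Ptprc were not called, and Lyz2 was well above background on 1 of the 4 arrays of day 1 and on none of day 0. In EGFP at day 4, Ptprc, Adgre1 and Lyz2 were well above background on no array, yet the 5 summed to 31.6 to 50.2. The sum there thus rests on Csf1r and Itgam and is no measure of all 5 markers. Proximal tubule markers (6) summed to 1.25 to 30.7 in TdTomato at day 4 with a median of 1.68, against 0.336 to 2.09 at day 0. Of the 6, Cubn, the endocytic receptor cubilin, rose in TdTomato at day 4 (4.00 ± 0.35) and in EGFP at day 4 (2.20 ± 0.35). Glomerular endothelial markers (6) summed to 22.5 to 35.7 at day 7, against 9.16 to 16.2 at day 0, with 3 of 6 higher. Mesangial markers (5) summed to 0.714 to 1.26 at day 1, 1.38 to 3.94 at day 4 and 3.37 to 5.53 at day 7, and 2.36 to 5.10 at day 0, with 1 of 5 lower at day 1, 2 higher and 1 lower at day 4, and 2 higher at day 7. The part of these cells in the changes of the 8 genes was not tested.

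The 8 genes did not move as 1 group over the 29 samples. The highest correlations among them were between Dph2 and Dph3 (Pearson r = 0.78) and between Dph3 and Dph5 (r = 0.75), and that between Dph5 and Furin was -0.24. Dph1 and Dnajc24 correlated at 0.17. These and the following correlations describe 29 samples that share groups, mice and slides. Among the 4 genes most like Eef2 over the samples, of 15587 genes with no missing value, were Pard6a (r = 0.88), Zfp316 (0.87) and Rnf40 (0.87). Those most like Dph5 were Rbms3 (0.97), Polrmt (0.96), Pyroxd1 (0.96) and Sncaip (0.96). For Dnajc24 they were Hadhb (0.93), Atxn10 (0.93), Med9 (0.92) and Apoo (0.92). For Furin they were Capns1 (0.96), Rhoa (0.96), Fgfr1 (0.95) and Aplp2 (0.95). For Eef2k the closest were Dusp26 (0.65), Tchh (0.63), Slc41a1 (0.57) and Gpat2 (0.57).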

How the data were processed

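Per the labels' protocols, RNA of FACS-sorted podocytes was taken up in TRIzol LS and Cy3 target was made with a low-input kit. Spot intensity on one-colour Agilent arrays was extracted with Agilent Feature Extraction 11.5.1.1, per the submitters' processing notes, and the deposited scanner files hold its processed signal per spot. The log2 values of the authors' deposited series matrix (39430 probes) served as an alternative, and their scaling and centring stay unknown (column medians ran from -3.18 to -2.33); 27 of 29 columns matched their own scanner file best, and both MC221 columns of day 7 did not. No column belonged to an unknown sample (0).

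The deposited intensity was turned into log2 minus the array's 75th percentile. Spots the software marked as non-uniform or as outliers became missing values. Probes well above background on at least 3 of 29 arrays were kept (38201, of which 20460 had a symbol). Of all probes 26576 had 1 symbol through their RefSeq accession, 29105 none and 0 several. Keeping the probe with the highest mean left 15635 genes (48 values missing). All 29 samples entered a limma 3.58.1 fit (R 4.3.3) of 8 group means, with Benjamini-Hochberg adjustment over all genes at 0.05, for 13 comparisons. The fit was tested on simulated data in which all samples were independent, so that test does not cover the pairing of samples by mouse. Errors are standard errors unless marked SD. Other steps ran in Python 3.11.15 (matplotlib 3.10.9, numpy 2.4.6, pandas 2.3.3).

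The same mouse pairs samples of the populations. Deviations from the group means correlated within mice at 0.0412 to 0.636 (consensus 0.596), so the mouse was also entered as a random block and, for the 13 mice with both samples, as a fixed term. Of the 4 slides 3 hold samples of all days and 1 holds none of day 7. Within-slide differences average the arrays of a group on a slide. Other alternatives were normexp background correction (offset 50) on median spot signals, in place of the planned mean spot signals, quantile normalization, no filter or a strict one on dim probes, other choices of probe, the slide as a block, only the groups compared, and each sample left out. Leaving out both MC221 arrays was chosen after seeing the data. The 8 genes are named in every comparison, of each related list up to 3 called genes with the largest change, and for likeness the 4 genes with the highest Pearson correlation. A few genes that these rules would name are not reported here. The 8 genes and the lists were chosen with earlier results of these data known.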

Additional observations from a re-analysis of the deposited data

Results flagged for a closer look

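In 4 of the 48 groups of 4 samples, 1 sample stood apart from the other 3 by a gap that was a large share of the group's range; chance gives such a gap in about 1 in 20 groups. Mouse MC822 at day 4 accounts for 3 of them. Its Eef2k in TdTomato stood at -1.16, against a group median of -3.06 (gap 0.848 of the range); the other Eef2k probe put the same sample at -4.14, the lowest of its 29 values. Its Dnajc24 stood at 2.53 in TdTomato, against a median of 1.90 (gap 0.853), and at 3.37 in EGFP, against a median of 2.75 (gap 0.833). Dph3 of EGFP MC221 at day 7 was low, at 1.63 against a median of 1.89 (gap 0.858). MC221 is the mouse whose deposited value columns follow other scanner files.

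By limma's interaction term, the change from day 0 was called different between TdTomato and EGFP for Dph5 (0.81) and Furin (-1.01) at day 1. At that day 38.4% of all genes were called. At day 4 it was called for Dph1 (-0.68), Dph5 (-0.48), Dnajc24 (-0.93) and Furin (-1.02), beside 44.3% of all genes. Some fits with 1 sample left out lost the calls of Furin at day 1 and of Dph1, Dph5 and Furin at day 4. With quantile normalization no day 4 call held.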

How the results depend on the processing

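No change of any of the 8 genes that was called in some setting turned its direction in another. The count of called genes stayed within 1.5 times that reported in 223 recomputations and moved further in 37. At day 4 in TdTomato the count was 1 with quantile normalization (58.4% of all genes called), against 4. It was 2 with only the groups compared and 2 to 4 with 1 sample left out. At day 7 in TdTomato it was 1 with the mean of the probes or the slide as a block, against 0. In EGFP it was 1 at day 4 with the slide as a block, and at day 7 it was 1 with quantile normalization or the series matrix, 2 with the slide as a block and 0 to 1 with 1 sample left out, against 0. For TdTomato minus EGFP at day 1 the paired fits gave 5 (mouse as a random replicate block) and 4 (fixed), the slide as a block 4, only the groups compared 1 and samples left out 1 to 4, against 2. At day 7 the replicate block gave 2 (random) and 1 (fixed), against 0; at day 4 the random block gave 6, against 4. The replicate block changed no count of the later days against day 0. The shares of all genes given with the results belong to the fit without mouse or slide terms. None is given for the fits with these terms, so their counts cannot be read as particular to the 8 genes. The interaction at day 1 fell to 1 with no filter or only the groups compared and ran from 1 to 2 with samples left out, against 2. The interaction at day 4 was 0 with quantile normalization (42.7% of all genes called) and 1 to 4 with samples left out, against 4. Where the construction does not show it (fewer samples, more genes tested), the cause was not tested. Normexp raised the median change of all genes at day 7 in TdTomato by 0.11. The other Dph1 probe, well above background on 27 of 29 arrays, limits what its values show.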
